A study of Homo sapiens with 6 samples.

Results

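The 7 genes described here are CCND1, CCND3 and CCNE1, which encode the G1 cyclins D1, D3 and E1, and CDKN1A, CDKN1C, CDKN2C and CDKN2D, which encode the CDK inhibitors p21, p57, p18 and p19. They were taken by gene symbol from a table of 6339 rows, in which each of the 7 had 1 row of its own. The rows come from ME-1, a human leukaemia cell line with inv(16), an inversion that joins CBFB to MYH11 and so yields the fusion protein CBFβ-SMMHC. Cells received AI-10-49 at 1 µM for 6 h or the solvent DMSO for 6 h, with 3 independent experiments in each group, so that 6 libraries of total RNA were compared. The compound is an inhibitor designed to bind the fusion protein and keep it from RUNX1. Both groups carry the inversion, and as ME-1 is a single cell line, p-values measure the spread between its cultures.

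A cell commits to division in G1. D-type cyclins bind CDK4 and CDK6, cyclin E binds CDK2, and these kinases phosphorylate RB, which then releases E2F transcription factors to turn on genes of DNA replication. INK4 inhibitors such as p18 and p19 bind CDK4 and CDK6 alone, whereas CIP/KIP inhibitors such as p21 and p57 bind several cyclin-CDK complexes. In mouse blood, cyclin D3 is known for its part in the expansion of progenitors, and p18 and p57 for limiting the division of stem cells.

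Values are FPKM, which sets the fragments of a gene against its transcript length and against all fragments mapped, so levels can in principle be compared between genes. The depth of the libraries is unknown. The table appears to hold selected rows, since only 134 of 6230 tested rows (2.15%) had a log2 fold change under 0.25 in size, while the median over all tested rows was -0.28. AI-10-49 replicate 2 stood apart. Of the 294 rows averaging 100 FPKM or more over replicates 1 and 3, each was lowest in replicate 2, which reached at most 159 FPKM where the other AI-10-49 libraries reached 1843 and 1877 FPKM. Levels of different genes in that library, and AI-10-49 means that include it, are therefore less safely compared. Of 16 myeloid and inv(16) markers, 9 had a row (SPI1, LYZ, CBFB, AZU1, PRTN3, ELANE, CD33, CEBPA and KIT) and summed to 211 to 299 FPKM with AI-10-49 and 439 to 485 FPKM with DMSO. The other 7 markers, MYH11 among them, were not analysed here. Markers of other lineages with a row summed to less. The 3 T and NK markers of 10 gave 19.7 to 20.1 FPKM with AI-10-49 and 34.5 to 36.2 FPKM with DMSO. The 2 B lymphoid markers of 8 gave 8.72 to 10.6 FPKM with AI-10-49 and 24.8 to 29.96 FPKM with DMSO. The 2 erythroid markers of 9 gave 4.72 to 5.60 FPKM with AI-10-49 and 9.90 to 10.5 FPKM with DMSO, and the 3 fibroblast and endothelial markers of 9 gave 7.88 to 8.84 FPKM with AI-10-49 and 13.9 to 14.5 FPKM with DMSO. Their part in the results below was not tested.

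After 6 h with AI-10-49 the transcripts of the 3 G1 cyclins were 4.26-fold to 5.21-fold lower, and CDKN1A was 5.63-fold higher. The other 3 inhibitor genes changed far less, with CDKN1C and CDKN2C lower and CDKN2D higher. All 7 genes passed the test (limma on log2(FPKM + 1), Benjamini-Hochberg adjusted p under 0.05), 5 lower and 2 higher, and all 7 also passed without AI-10-49 replicate 2. Of all tested rows 95.3% passed, 49.1% lower and 46.2% higher, so the fact that all 7 passed is no result about these genes. In 96.2% of tested rows the groups did not overlap, so a lack of overlap in a single gene below is no result either. With a log2 fold change of at least 1 in size, 4 of the 7 remained (CCND1, CCND3, CCNE1 and CDKN1A), against 13.4% of tested rows. Of these, the 3 cyclins lay at -1 or lower, as did 7.62% of tested rows, and CDKN1A lay at 1 or higher, as did 5.79%. The genes were chosen with earlier results of these data known, so nothing is read from this difference. In bulk RNA, fewer cells in a cell cycle phase that holds a transcript and less of it per cell cannot be told apart.

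**Figure D1:**
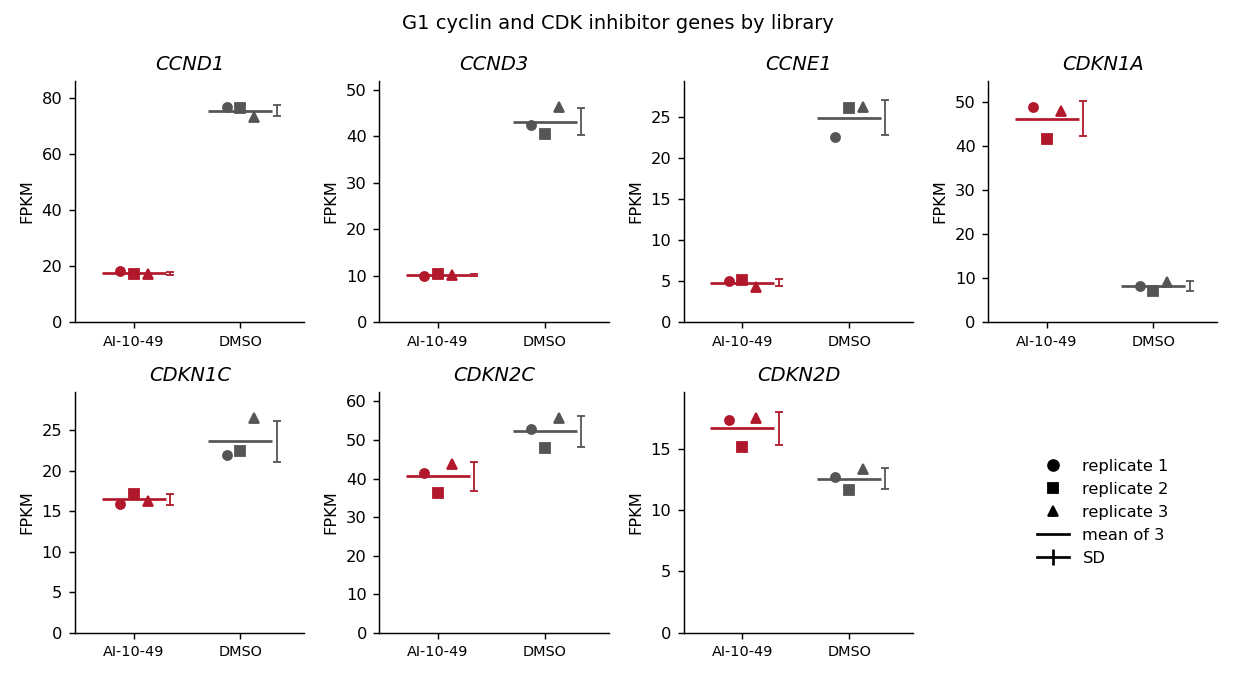
FPKM of the 7 genes in each library, AI-10-49 in red on the left and DMSO in grey on the right of each panel, with replicates 1, 2 and 3 as circle, square and triangle, group means as lines and SD as bars (n = 3). The groups do not overlap in any panel, as in 96.2% of all tested rows. CDKN1A stands at 41.6 to 48.9 FPKM with AI-10-49 against 7.12 to 9.21 FPKM with DMSO.

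CCND1 encodes cyclin D1, which activates CDK4 and CDK6 in response to growth signals. CCND1 stood at 18.1, 17.0 and 17.3 FPKM with AI-10-49, against 76.9, 76.5 and 73.4 FPKM with DMSO. All 3 AI-10-49 libraries lay far below the DMSO libraries, and the values within each group differed little. The means were 17.5 ± 0.57 FPKM with AI-10-49 and 75.6 ± 1.93 FPKM with DMSO (SD, n = 3 each), a log2 fold change of -2.05 ± 0.08 (SE, limma adjusted p = 1.63e-10). Of the 6230 tested rows, 27 had a lower log2 fold change.

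CCND3 encodes cyclin D3, the D-type cyclin known for its role in blood cells. CCND3 stood at 9.85, 10.4 and 10.1 FPKM with AI-10-49, against 42.5, 40.5 and 46.3 FPKM with DMSO. The groups were again far apart, with DMSO replicate 3 the highest. The means were 10.1 ± 0.26 FPKM with AI-10-49 and 43.1 ± 2.94 FPKM with DMSO (SD, n = 3 each), a log2 fold change of -1.99 ± 0.07 (SE, limma adjusted p = 9.24e-11). The CCND1 transcript made up 64.8%, 62.2% and 63.0% of the summed FPKM of CCND1 and CCND3 with AI-10-49, against 64.4%, 65.4% and 61.3% with DMSO. These shares overlapped between the groups. The log2 ratio of CCND1 to CCND3 differed by -0.02 ± 0.09 (SE) between the groups (exact two-sided permutation p = 0.9, n = 3 each), so no shift between both D-type cyclins was detected. CCND2, the third gene of this kind, was not analysed here.

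CCNE1 encodes cyclin E1, the partner of CDK2 at the G1/S transition and a target of E2F. CCNE1 stood at 4.96, 5.10 and 4.28 FPKM with AI-10-49, against 22.5, 26.0 and 26.2 FPKM with DMSO. Every AI-10-49 library lay below every DMSO library. The means were 4.78 ± 0.44 FPKM with AI-10-49 and 24.9 ± 2.1 FPKM with DMSO (SD, n = 3 each), a log2 fold change of -2.16 ± 0.08 (SE, limma adjusted p = 1.62e-10). This was the largest fall among the 7 genes, and 16 tested rows had a lower log2 fold change. Within each library the ratio of CCNE1 to CCND3 was 0.504, 0.492 and 0.422 with AI-10-49, against 0.530, 0.643 and 0.567 with DMSO. The ratios did not overlap, and their log2 difference was -0.29 ± 0.11 (SE). An exact two-sided permutation test gave p = 0.1, the smallest that 3 against 3 libraries can give, or 0.117 after Benjamini-Hochberg adjustment over the 7 ratios tested.

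CDKN1A encodes p21, which inhibits CDK2 complexes and also binds PCNA. CDKN1A stood at 48.9, 41.6 and 48.0 FPKM with AI-10-49, against 8.28, 7.12 and 9.21 FPKM with DMSO. AI-10-49 replicate 2 was the lowest of its group and still more than any DMSO library. The means were 46.2 ± 3.97 FPKM with AI-10-49 and 8.20 ± 1.05 FPKM with DMSO (SD, n = 3 each), a log2 fold change of 2.36 ± 0.09 (SE, limma adjusted p = 2.12e-10), and 2.43 without AI-10-49 replicate 2. Of the tested rows, 29 had a higher log2 fold change. CDKN1A made up 39.5%, 37.7% and 38.2% of the summed FPKM of the 4 inhibitor genes with AI-10-49, against 8.64%, 7.98% and 8.78% with DMSO.

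CDKN1C encodes p57, a CIP/KIP inhibitor expressed from the maternal allele in many tissues and linked to quiescence of blood stem cells. CDKN1C stood at 15.9, 17.2 and 16.3 FPKM with AI-10-49, against 21.9, 22.5 and 26.6 FPKM with DMSO. The groups did not overlap, and DMSO replicate 3 was the highest library. The means were 16.5 ± 0.66 FPKM with AI-10-49 and 23.7 ± 2.54 FPKM with DMSO (SD, n = 3 each), a log2 fold change of -0.49 ± 0.08 (SE, limma adjusted p = 6.09e-05). The 2 CIP/KIP genes thus went opposite ways without overlap, so their ratio had to separate the groups and is no further test. The ratio of CDKN1A to CDKN1C was 3.07, 2.42 and 2.94 with AI-10-49, against 0.378, 0.316 and 0.347 with DMSO, a difference of 3.01 ± 0.13 on the log2 scale (SE, exact two-sided permutation p = 0.1, n = 3 each, adjusted p = 0.117).

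CDKN2C encodes p18, an INK4 inhibitor of CDK4 and CDK6. CDKN2C stood at 41.6, 36.4 and 43.8 FPKM with AI-10-49, against 52.9, 48.0 and 55.8 FPKM with DMSO. Replicate 2 was the lowest library of both groups, and the groups did not overlap. The means were 40.6 ± 3.81 FPKM with AI-10-49 and 52.2 ± 3.97 FPKM with DMSO (SD, n = 3 each), a log2 fold change of -0.36 ± 0.10 (SE, limma adjusted p = 0.00476). The median of all tested rows was -0.28, and median scaling of the libraries left it at -0.28. Few rows lay near 0, so this median falls beside that gap and cannot be read as a shift shared by all rows. Quantile normalization gave -0.18 (adjusted p = 0.00641), where the median of all rows was -0.06, and without AI-10-49 replicate 2 the value was -0.28.

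CDKN2D encodes p19, another INK4 inhibitor of CDK4 and CDK6. CDKN2D stood at 17.3, 15.1 and 17.5 FPKM with AI-10-49, against 12.7, 11.6 and 13.4 FPKM with DMSO. Each AI-10-49 library lay above each DMSO library, and replicate 2 was again the lowest of both groups. The means were 16.7 ± 1.34 FPKM with AI-10-49 and 12.6 ± 0.87 FPKM with DMSO (SD, n = 3 each), a log2 fold change of 0.38 ± 0.07 (SE, limma adjusted p = 0.000369). The ratio of CDKN2D to CDKN2C, in which a shift of equal size in all rows of a library cancels, was 0.417, 0.416 and 0.401 with AI-10-49, against 0.240, 0.242 and 0.239 with DMSO. AI-10-49 replicate 2 was the lowest of its group in all 294 high rows but not in CCND3, CCNE1 or CDKN1C. Its departure was thus no equal shift and need not cancel. The ratios were tight within each group and did not overlap. As CDKN2D rose and CDKN2C fell without overlap, this separation was fixed in advance and is no further test. Their log2 difference was 0.77 ± 0.02 (SE, exact two-sided permutation p = 0.1, n = 3 each, adjusted p = 0.117).

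**Figure D2:**
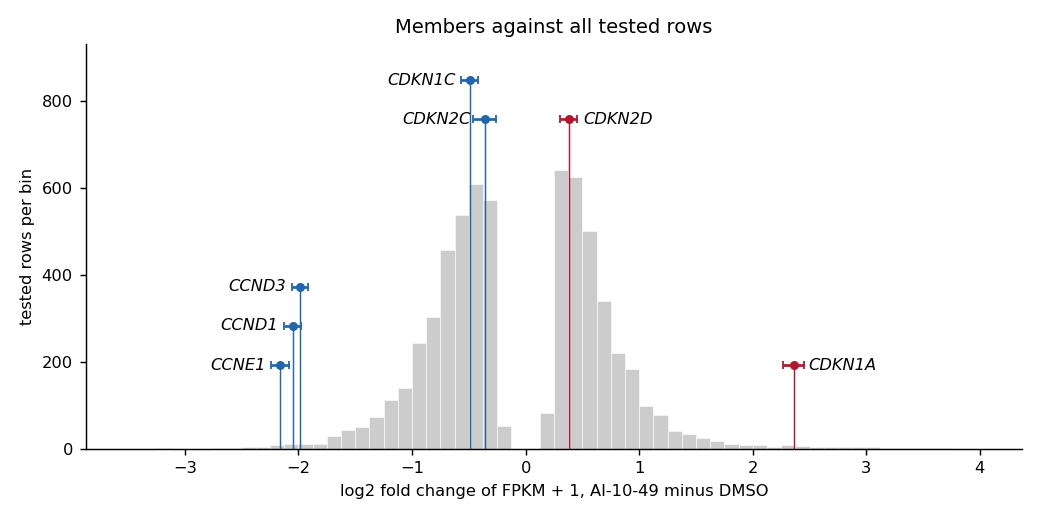
Log2 fold changes of the 7 genes (points with SE, red higher and blue lower with AI-10-49) over a histogram of all 6230 tested rows in bins along the horizontal axis. CCNE1 (-2.16), CCND1 (-2.05), CCND3 (-1.99) and CDKN1A (2.36) lie in the tails, while CDKN1C, CDKN2C and CDKN2D lie where most rows are, and few rows lie near 0.

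The order of the 7 levels differed between the groups. With AI-10-49 it ran from CDKN1A (46.2 FPKM) over CDKN2C (40.6), CCND1 (17.5), CDKN2D (16.7), CDKN1C (16.5) and CCND3 (10.1) to CCNE1 (4.78 FPKM). The libraries of CDKN1A and CDKN2C overlapped in this order, as did those of CCND1 and CDKN2D and those of CDKN2D and CDKN1C. With DMSO the order ran from CCND1 (75.6 FPKM) over CDKN2C (52.2), CCND3 (43.1), CCNE1 (24.9), CDKN1C (23.7) and CDKN2D (12.6) to CDKN1A (8.20 FPKM), and among neighbours only CCNE1 and CDKN1C overlapped. CDKN1A was thus the highest of the 7 mean levels with AI-10-49 and the lowest with DMSO.

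**Figure D3:**
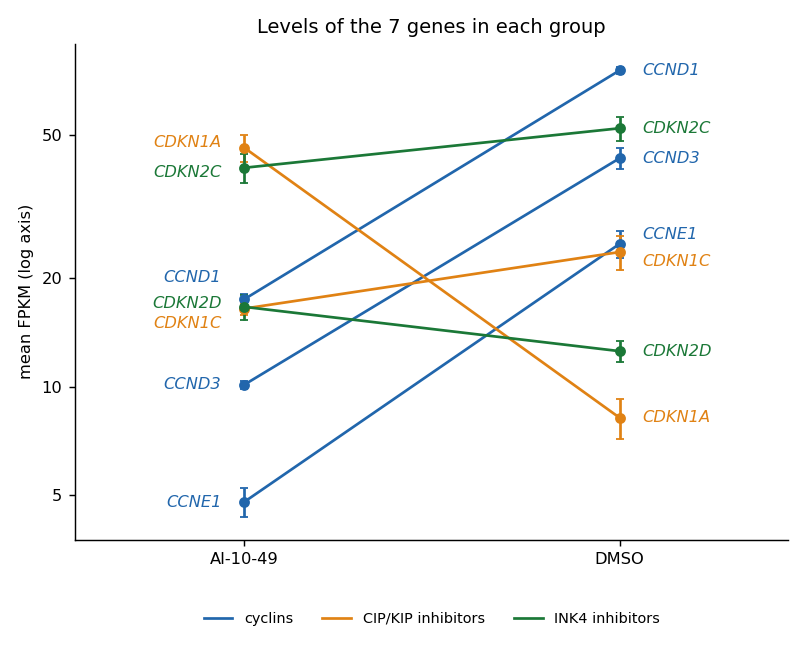
Mean FPKM on a log axis of each gene with AI-10-49 (left) and DMSO (right), with SD bars (n = 3) and lines that join the same gene, cyclins in blue, CIP/KIP inhibitors in orange and INK4 inhibitors in green. The 3 cyclin lines run side by side, CDKN1A crosses all of them, and the other inhibitors differ little between the groups.

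The summed FPKM of the 3 cyclins was 32.9, 32.5 and 31.7 with AI-10-49, against 142, 143 and 146 with DMSO, which was 4.43-fold lower. The sum over the 4 inhibitors was 124, 110 and 126 FPKM with AI-10-49, against 95.8, 89.2 and 105 FPKM with DMSO. The groups did not overlap in either sum (exact two-sided permutation p = 0.1 for each, n = 3 each). For the cyclin sum this had to be so, since each of its 3 genes was lower in every AI-10-49 library. The CIP/KIP pair summed to 62.6 ± 3.33 FPKM with AI-10-49 and 31.9 ± 3.41 FPKM with DMSO (SD, n = 3 each, exact two-sided permutation p = 0.1). Its rise was that of CDKN1A (46.2 against 8.20 FPKM), as CDKN1C was lower (16.5 against 23.7 FPKM). The higher sum over the 4 inhibitors rests on CDKN1A too, since CDKN1C and CDKN2C were lower and CDKN2D slightly higher. Neither sum shows that the inhibitors rose as a group. The INK4 pair summed to 57.2 ± 5.13 FPKM with AI-10-49 and 64.8 ± 4.84 FPKM with DMSO (SD, n = 3 each, exact two-sided permutation p = 0.2). With 3 against 3 libraries no sum could reach a p under 0.1. The libraries of the groups overlapped in the INK4 sum.

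The ratio of CDKN1A to each cyclin compares inhibitor with cyclin inside the same library. CDKN1A to CCND1 was 2.70, 2.44 and 2.77 with AI-10-49, against 0.108, 0.0931 and 0.126 with DMSO, or 24.4-fold higher. The ratio was 24.0-fold higher for CCND3 and 29.4-fold higher for CCNE1. In all 3 ratios the groups did not overlap (exact two-sided permutation p = 0.1, n = 3 each, adjusted p = 0.117). CDKN1A was higher and each cyclin lower in every AI-10-49 library, so these ratios had to separate the groups. Their tests add nothing to those of the single genes, and their size combines the rise of CDKN1A with the fall of each cyclin. The share of single rows whose groups did not overlap was 96.2% over all tested rows, and no such share was computed for ratios.

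**Figure D4:**
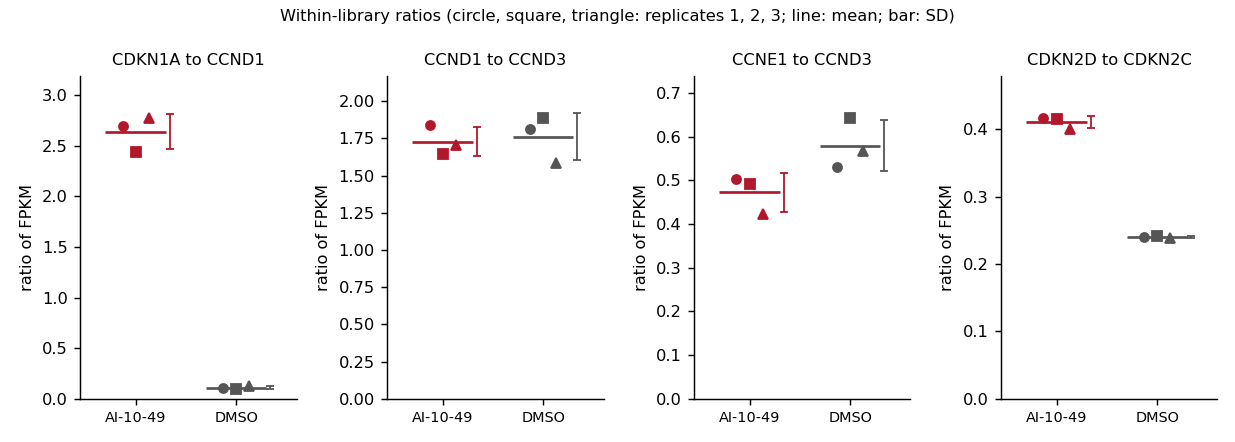
Ratios of FPKM within each library for 4 pairs of genes, AI-10-49 in red on the left and DMSO in grey on the right, with replicates as circle, square and triangle, means as lines and SD as bars (n = 3). CDKN1A to CCND1 and CDKN2D to CDKN2C separate the groups widely, CCNE1 to CCND3 narrowly, and CCND1 to CCND3 overlaps.

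A set of RefSeq promoters on GRCh38.p14 held 5 of the 7 genes, in 9 windows of 250 bases before an annotated start. CCND1 and CDKN1C were not in the set used here. Windows of the 3 genes with a single start in this set are shown because they cover the largest fall (CCNE1), the rise of CDKN1A and the small rise of CDKN2D. Each is written 5′ to 3′ on the strand of the gene and ends at the base before the start, with GC boxes (GGGCGG on either strand, the motif bound by SP1 and KLF factors) in capitals, and overlapping boxes run together. CCNE1 lies at chr19:29811741-29811990 on the plus strand, CDKN1A at chr6:36678464-36678713 on the plus strand and CDKN2D at chr19:10568980-10569229 on the minus strand.
CCNE1: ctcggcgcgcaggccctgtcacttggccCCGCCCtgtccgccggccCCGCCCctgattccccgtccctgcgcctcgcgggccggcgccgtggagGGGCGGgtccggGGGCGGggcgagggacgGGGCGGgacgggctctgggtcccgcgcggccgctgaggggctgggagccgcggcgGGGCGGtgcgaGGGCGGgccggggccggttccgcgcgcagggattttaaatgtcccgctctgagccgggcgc
CDKN1A: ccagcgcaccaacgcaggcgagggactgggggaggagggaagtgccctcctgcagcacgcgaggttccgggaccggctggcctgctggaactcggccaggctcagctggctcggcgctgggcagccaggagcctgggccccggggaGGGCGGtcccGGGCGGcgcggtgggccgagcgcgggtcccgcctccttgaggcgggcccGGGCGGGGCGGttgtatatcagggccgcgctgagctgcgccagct
CDKN2D: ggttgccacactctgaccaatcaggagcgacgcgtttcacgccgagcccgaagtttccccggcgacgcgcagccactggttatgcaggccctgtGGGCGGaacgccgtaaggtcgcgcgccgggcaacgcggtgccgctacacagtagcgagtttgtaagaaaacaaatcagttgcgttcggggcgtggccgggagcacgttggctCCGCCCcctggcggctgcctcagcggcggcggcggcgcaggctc

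These windows held 7 GC boxes in CCNE1, 4 in CDKN1A and 2 in CDKN2D, counted on both strands. The window of CCNE1 was 81.2% G and C, that of CDKN1A 76.4% and that of CDKN2D 67.6%. Of the 9 windows, 7 held a GC box, against 42.6% of all 35116 promoters of the set, and windows of 1 gene are not independent. The E-box CACGTG, bound by MYC with MAX, was in 2 of the 9 windows, both of CDKN2C, against 6.34% of all promoters. Of the E2F forms TTTCCCGC and TTTGGCGC, searched on both strands, none of the 9 windows held either, against 1.39% and 0.55% of all promoters. A match describes letters and not binding, and sites outside these windows were not searched.

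The rows most like each gene were taken as those with the smallest root mean square difference over the 6 libraries in log2(FPKM + 1) after subtraction of each row's own DMSO mean. For CCND1 these were PVRL1 (0.011), ZFP36L2 (0.063) and KIAA0125 (0.064). CCND3 was closest to B4GALT2 (0.063), ALDH1B1 (0.063) and CDC25A (0.067), of which CDC25A encodes a phosphatase that activates CDK2. CCNE1 was closest to EMILIN1 (0.075), SAPCD2 (0.088) and NRXN2 (0.092). For CDKN1A these were TSC22D3 (0.045), which encodes a glucocorticoid-induced leucine zipper protein, GPT2 (0.076) and PMEPA1 (0.077). For CDKN1C they were ARNTL2 (0.028), WDR12 (0.032) and DISP2 (0.036), for CDKN2C they were TMEM141 (0.027), METTL9 (0.028) and HIGD1A (0.038), and for CDKN2D they were OBFC1 (0.012), DYNC1LI1 (0.013) and C4orf27 (0.024). Genes of modest change have many near neighbours in this table. The measure mainly picks rows with a log2 fold change of similar size, such as CDC25A (-1.97) beside CCND3 (-1.99). Shared regulation was not tested.

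Other cyclins of the cell cycle fell as well. The counts over this and the following lists stand in a table where 95.3% of tested rows passed, 49.1% lower and 46.2% higher, with a median log2 fold change of -0.28. Few rows lay near 0, so that median is a poor baseline for those of the lists. Of 8 other cell cycle cyclin genes, 5 had a tested row, and all 5 fell, with a median log2 fold change of -0.92. CCNE2, which encodes cyclin E2, stood at 5.13, 5.64 and 5.40 FPKM with AI-10-49, against 18.1, 15.8 and 18.2 FPKM with DMSO. Its log2 fold change was -1.52 ± 0.07 (SE, limma adjusted p = 1.56e-09). CCNF (-1.14), CCNA1 (-0.92), CCNB1 (-0.58) and CCNA2 (-0.36) gave smaller falls on the log2 scale. Of 20 genes of transcriptional and other cyclins, 8 had a tested row, of which 5 rose, 2 fell and 1 did not pass (CCNG1, which passed without AI-10-49 replicate 2). CABLES1, which encodes a CDK-binding protein, rose to 128, 68.9 and 128 FPKM with AI-10-49, against 29.2, 29.4 and 31.4 FPKM with DMSO (log2 fold change 1.76). CCNH (0.81) and CCNC (0.58) rose, and CABLES2 (-0.75) and CCNJ (-0.59) fell. Among 6 other genes listed with the CDK inhibitors, CDKN2AIP, which encodes a protein that binds the ARF product and is no CDK inhibitor, had the only row and rose (0.39). CDKN1B, CDKN2A and CDKN2B were not analysed here.

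Kinases of the cell cycle and the phosphatases that activate them went both ways, and the list holds genes that act mainly at mitosis, such as CDK1, as well as partners of the G1 cyclins. Of 12 listed genes 10 had a tested row, with 7 lower and 3 higher and a median log2 fold change of -0.74. CDC25A stood at 4.95, 4.84 and 4.46 FPKM with AI-10-49, against 21.5, 21.3 and 21.8 FPKM with DMSO. Its log2 fold change of -1.97 ± 0.06 (SE, limma adjusted p = 6.13e-11) was the largest of the list. CDK4, the partner of the D-type cyclins, stood at 63.1, 44.4 and 63.0 FPKM with AI-10-49, against 116, 114 and 139 FPKM with DMSO. The groups did not overlap and AI-10-49 replicate 2 was the lowest library. Its log2 fold change was -1.11 ± 0.18 (SE, limma adjusted p = 8.05e-05), or -0.94 without that library and -0.71 with quantile normalization. CDK2, the partner of cyclin E, changed by -0.94, and the genes of the inhibitory kinases WEE1 and PKMYT1 by -1.37 and -0.86. The 3 genes that rose, named after their values were seen, were MNAT1 (0.82), CDK7 (0.70) and CDC25C (0.69). MNAT1, CDK7 and CCNH encode the subunits of the kinase that activates other CDKs. CDK6 was not analysed here.

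Genes of the RB and E2F system went both ways. Of 18 listed genes 13 had a tested row, of which 9 fell and 4 rose, with a median of -0.68. RB1, which encodes the main target of the G1 kinases, rose to 39.8, 36.4 and 42.1 FPKM with AI-10-49, against 20.4, 18.6 and 20.4 FPKM with DMSO (log2 fold change 0.96 ± 0.08 SE, limma adjusted p = 1.46e-07). E2F1, an activator of replication genes, fell to 16.7, 16.4 and 16.1 FPKM with AI-10-49, against 43.5, 45.9 and 46.6 FPKM with DMSO (log2 fold change -1.41). E2F8 (-1.60), E2F2 (-1.08) and the DP partner gene TFDP1 (-1.07) fell. Besides RB1 the genes that rose were LIN37 (1.08), LIN54 (0.49) and LIN9 (0.41), which encode subunits of the MuvB core that joins p130 in repressing cell cycle genes. RBBP4 (-0.74), which encodes another subunit of that core, and RBL2 (-0.31), which encodes p130, fell. LIN54, LIN9, RBBP4 and RBL2 were named after their values were seen. Of 30 E2F targets of S phase entry, 26 had a tested row and all 26 fell, with a median of -0.997 and UHRF1 (-2.37), FEN1 (-1.92), GINS2 (-1.72), PCNA (-1.70) and MCM4 (-1.70) at the far end. PCNA was at -1.41 without AI-10-49 replicate 2 and at -1.21 with quantile normalization. CCNE2, CCNA2, E2F1 and E2F2 stand on this list and on one of those above.

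Genes that act on the turnover of G1 regulators, most of them parts of ubiquitin ligases, fell in 8 and rose in 5 of 13 with a tested row, of 25 listed, against 49.1% lower and 46.2% higher over all tested rows. The deubiquitinase gene USP22 (0.52), named after its value was seen, is among the 5. SKP2, which encodes the F-box protein that targets the inhibitor p27, fell by 0.76 on the log2 scale, and CUL4A by 0.76, while CUL4B rose by 0.59. SKP1 changed by -0.74, or -0.45 without AI-10-49 replicate 2, and CKS2 by -0.60 (limma adjusted p = 0.0434), or -0.28 without that library. FBXO31 (-0.53) and AMBRA1 (0.31), named after their values were seen, encode adaptors for the ubiquitination of cyclin D1 and of the D-type cyclins. Without AI-10-49 replicate 2, 12 of the 13 passed, since RBX1 (-0.43) did not, and with quantile normalization 11 did, without RBX1 and CKS2.

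Among factors known to act on transcription of the 7 genes, 22 of 35 had a tested row, with 14 higher, 7 lower and 1 that did not pass, where 46.2% of all tested rows were higher and 49.1% lower. MYC, whose product is known to repress CDKN1A together with MIZ1 and to favour cyclin expression, stood at 27.9, 23.4 and 25.8 FPKM with AI-10-49, against 235, 233 and 242 FPKM with DMSO (log2 fold change -3.16). ZBTB17, the gene of MIZ1, named after its value was seen, rose (0.51). A part of MYC in the changes of the 7 genes was not tested. ATF3 (3.55), JUN (3.49) and KLF6 (1.51) rose and CEBPA (-1.58) fell. CTNNB1, the gene that did not pass, was at 0.38, and at 0.64 without AI-10-49 replicate 2, where all 22 passed.

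**Figure D5:**
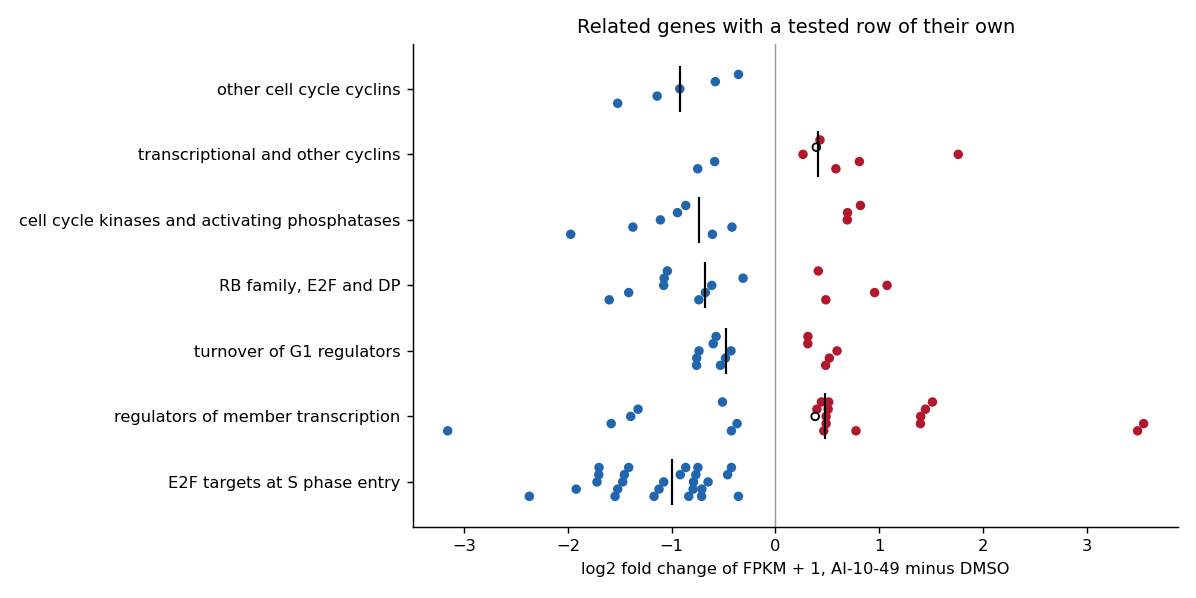
Log2 fold change (horizontal axis) of each gene with a tested row of its own in 7 related lists, higher in red, lower in blue and not past the threshold as open circles, with the list median as a black line. Other cell cycle cyclins (5 of 5) and E2F targets (26 of 26) lie wholly to the left of 0, and the other lists lie on both sides.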

How the data were processed

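Total RNA was turned into TruSeq libraries and read from both ends over 90 bp, per the labels' protocols. Cuffdiff, Cufflinks 2.2.0, Bowtie2 2.1.0 and hg19 are named in the submitters' processing notes. The authors' deposited table gives FPKM per gene, 1 column for each library, and how its rows were selected is not stated in the sources used here. Of its 6339 rows, 198 name several genes.

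FPKM are not counts, so log2(FPKM + 1) was fitted with limma 3.58.1 in R 4.3.3 (AI-10-49 minus DMSO, mean-variance trend, two-sided), over the 6230 rows that averaged 1 FPKM or more in either group. P-values were adjusted over all of these by the Benjamini-Hochberg method, with a threshold of 0.05. As the rows appear to be selected by a rule that is not stated, adjusted p-values may understate the share of false calls. Fold changes on this scale understate changes of low genes. Fold differences given as such are ratios of mean FPKM, and those of ratios are from mean log2 ratios. The procedure was tested on simulated data in which few rows were changed. In the real data 95.3% of tested rows passed, so that test does not measure false calls here. Exact permutation tests used SciPy 1.17.1. No precision from depth can be given, since depth is unknown.

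The 7 genes, the related lists and the marker lists were chosen with earlier results of these data known. List members were matched by symbol. The results of 1 listed gene and of 1 list are not reported here. Genes named were the 7, up to 5 of largest change in each list, fixed genes (CDK4, CDK6, CDK2, CDKN1B, CCND2, CCNE2, RB1, E2F1 and MYC) where a row exists, and the 3 rows most like each member. Alternatives were other pseudocounts, filters and scalings, the replicate number as a block, no trend, a stricter threshold, a fold minimum and leaving out each library.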

Additional observations from a re-analysis of the deposited data

How the results depend on the processing

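All 7 genes kept their direction and their call when single libraries were left out and under pseudocounts of 0.1 and 0.5, no filter, quantile normalization, median scaling, the replicate block, no trend and a threshold of 0.01. They did so too with a filter at 5 FPKM. The highest adjusted p was 0.0246, for CDKN2C without DMSO replicate 3. A minimum log2 fold change of 1 left 4 of the 7 genes and 836 of all rows, which removes small changes by construction. Leaving out single libraries gave 7 genes each time and 5730 to 6067 rows past the threshold. The log2 difference in the ratio of CCND1 to CCND3 lay between -0.098 and 0.028 when single libraries were left out, so its sign was not fixed. Ratios of FPKM + 1 gave log2 differences of 4.35 for CDKN1A to CCND3, 4.52 for CDKN1A to CCNE1 and 0.74 for CDKN2D to CDKN2C, smaller because the added 1 weighs most on low values. For CCNE1 to CCND3, whose values are low, the difference shrank from -0.29 to -0.18. The median over all rows was -0.06 after quantile normalization. With the replicate block 7 genes passed. The numbers were not treated as pairs, since the labels name no shared day or culture. Deviations of same-numbered libraries correlated at r = -0.15, 0.147 and 0.247 across rows. Those of differently numbered libraries correlated at -0.254 to 0.205. Deviations from a group mean depend on each other, so these values cannot settle pairing. Depth is unknown, so precision rests on 3 libraries per group. The SE of log2 fold changes from limma also draw on the variances of the other tested rows.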

Other observations

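CDK genes on none of the lists were looked at after the data had been seen. Of 5 such rows, 4 rose and 1 fell, and all 5 also passed without AI-10-49 replicate 2 (limma, adjusted over all rows). Of all tested rows 95.3% passed, 46.2% higher and 49.1% lower. The 1 that fell was CDK9 (log2 fold change -0.37), which encodes the kinase of the elongation factor P-TEFb. CDK8 and CDK19, which encode the alternative kinases of the Mediator complex, rose. CDK8 stood at 24.0, 25.8 and 23.6 FPKM with AI-10-49, against 14.4, 15.8 and 15.3 FPKM with DMSO (log2 fold change 0.66 ± 0.07 SE, limma adjusted p = 1.09e-06). CDK19 stood at 17.7, 17.9 and 18.8 FPKM with AI-10-49, against 13.7, 12.5 and 12.9 FPKM with DMSO (log2 fold change 0.45). CDK17 (0.59) and CDK13 (0.31), a kinase of RNA polymerase II, rose as well. CCNC (0.58), the cyclin gene of CDK8 and CDK19, and CCNT1 (0.43) and CCNT2 (0.27), those of CDK9, rose.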
